A study of Homo sapiens with 4 samples.

Results

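Transcripts of 10 genes of vasoactive peptide signalling (NPPB, NPPA, NPR1, NPR3, ADM, ADM2, EDN1, EDN2, ECE1 and RAMP1) were followed among the 30925 gene symbols of an expression array. The members are the probes whose deposited symbol is one of these names, and each gene had 1 probe. They were chosen by family and with the values of this same comparison known, in which the NPPB signal was among the largest increases. Their adjusted p-values therefore only place them in the fit of all genes and support nothing further. The cells were MDA-MB-231, a widely used line of human triple-negative breast cancer, grown in DMEM with serum. Both groups were transduced with a short hairpin RNA, a scrambled one in shCntrl (n = 2 arrays) and one against TRPM7 in shT7#1 (n = 2 arrays). TRPM7 encodes a divalent cation channel fused to a kinase. A single hairpin against TRPM7 was analysed here, so effects of TRPM7 loss and other effects of that hairpin cannot be told apart. Whether the 2 arrays of a group stem from separate cultures is not stated in the labels, so the p-values cover only the spread between these arrays, which may be technical.

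Natriuretic peptides are hormones of the heart that raise cyclic GMP in target cells through guanylyl cyclase receptors and thereby promote sodium excretion and dilate vessels. Adrenomedullin is a vasodilator peptide that acts through the calcitonin receptor-like receptor, whose ligand preference is set by receptor activity-modifying proteins. Endothelins are potent vasoconstrictors, cut from an inactive precursor by endothelin-converting enzymes, and are made by many carcinomas as well as by endothelium.

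Between 19492 and 20261 of the 47323 probes were above background (detection p under 0.05) on an array. The probe of TRPM7 was not above background on any array, so the knockdown could not be checked here and the groups rest on the labels. Of 6 genes fixed as markers of MDA-MB-231 cells, 5 were above background on all 4 arrays, with SPARC the exception. Of 8 endothelial markers, 6 were not above background on any array, among them CDH5, VWF and KDR, while PECAM1 was above it on 3 arrays and ESAM was bright on all 4 (mean log2 signals of 9.99 in shCntrl and 9.95 in shT7#1). The linear signal summed over all 8, most of it from ESAM, lay between 1147 and 1256 units in shCntrl and between 1157 and 1168 in shT7#1. Of 8 cardiomyocyte markers, 5 were not above background on any array, and the sums lay between 192.2 and 210.8 units in shCntrl and between 212.6 and 214.6 in shT7#1. MYH6, TNNT2 and MYL7 were above background on some arrays but not on all 4, so these sums are largely background. MYH6 had mean log2 signals of 4.77 in shCntrl and 5.30 in shT7#1 and was not called. Of 6 smooth muscle markers, 4 were not above background on any array and ACTA2 fell. The brightest probe of SMTN, above background on all 4 arrays, was flat (0.03 log2 units, not called). A dimmer SMTN probe, also above background on all 4 arrays, stood at 5.91 and 5.56 in shCntrl and at 5.99 and 6.45 in shT7#1. The smooth muscle sums lay between 549.5 and 609.1 units in shCntrl and between 425.9 and 498.4 in shT7#1. Of 6 luminal breast markers, 3 were not above background on any array, and SPDEF and AGR2 fell. GATA3, above background on all 4 arrays, differed by 0.33 log2 units and was not called. The luminal sums lay between 488.1 and 515.9 units in shCntrl and near 249 in shT7#1 (248.8 and 249.2). The part of these marker shifts in the values below was not tested.

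NPPB, which encodes the precursor of B-type natriuretic peptide, was above background in shT7#1 only. Its raw signal was 108.1 and 103.3 units on the shCntrl arrays, neither above background, and 328.6 and 359.6 units on the shT7#1 arrays. On the normalised log2 scale these were 4.45 and 4.34 in shCntrl and 7.99 and 7.94 on the shT7#1 arrays. The groups lay far apart and the arrays of each group close together, at 4.39 ± 0.08 (SD, n = 2) and 7.96 ± 0.03 (SD, n = 2). The detection floor of an array is the lowest normalised signal of any probe above background. With the shCntrl arrays at this floor, NPPB was at least 8.13-fold higher in shT7#1 under the main processing. This bound holds for that processing only. The fitted log2 change was 1.70 without background correction and 2.37 with an offset of 50. The limma adjusted p of NPPB in the fit of all genes was 0.000464. In that fit the shCntrl values are background and NPPB passed the filter only through shT7#1. In bulk RNA, more cells that express a gene and more transcript per cell cannot be told apart.

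The size of the NPPB difference moved with the processing. The fitted log2 change was 3.57 with the main processing, 1.70 without background correction and 5.91 on the authors' processed values, which differ in several steps at once. The authors' deposited table lists NPPB at 60.24-fold in shT7#1, the second line of its 25237 genes, from a mean of 1.93 log2 units in shCntrl. That value lies below the 2.5 log2 units under which the same table treats a gene as background.

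NPPA, which encodes atrial natriuretic peptide and neighbours NPPB in the genome, was not above background on any array. Its log2 signals were 4.46 and 4.76 in shCntrl and 4.46 and 4.56 in shT7#1, and the groups overlapped. NPR3, which encodes the clearance receptor that removes natriuretic peptides, was likewise not above background on any array. It stood at 4.36 and 4.81 in shCntrl and 4.71 and 4.40 in shT7#1. Neither gene entered the tests. Of the first 3 genes on either side of NPPB in the RefSeq order, only CLCN6, a chloride transporter gene, was tested. CLCN6 differed by -0.40 ± 0.17 log2 units (SE), with a limma adjusted p of 0.215. It was -0.61 without replicate 1 of shT7#1, -0.19 without replicate 2 of shT7#1 and -0.64 with the mean of its passing probes, and was not called in any of these.

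NPR1, which encodes the guanylyl cyclase receptor of both cardiac peptides, was near the detection floor. Its log2 signals were 5.62 and 5.65 in shCntrl, and 5.56 and 4.66 on the shT7#1 arrays. The lower shT7#1 array was not above background, and the other lay close to the shCntrl values. The log2 change was -0.53 ± 0.29 (SE), with a 95% interval from -1.25 to 0.19 and a limma adjusted p of 0.321. Replicate 2 of shT7#1 carried most of that difference, which was -0.08 without it and -0.98 without replicate 1 of shT7#1.

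Among 16 other genes of natriuretic peptide processing and cyclic GMP signalling, 2 were tested, 1 rose, 0 fell and 1 was not called. For this list and those below, the shares over all genes tested were 2.93% called higher and 3.55% called lower. The gene that rose was PDE9A, a phosphodiesterase that degrades cyclic GMP. Its brightest probe gave log2 signals of 4.57 and 4.72 in shCntrl, neither above background, and 7.82 and 7.60 in shT7#1. With shCntrl at the detection floor, PDE9A was at least 6.80-fold higher at this probe under the main processing, with a limma adjusted p of 0.000990. Like NPPB, PDE9A passed the filter only through shT7#1. Its fitted log2 change was 3.06 with the main processing and 1.38 without background correction. A second PDE9A probe was nearer the floor, at 4.69 and 4.96 in shCntrl and 6.04 and 5.53 in shT7#1, with 1 shCntrl array above background. The remaining PDE9A probes were not above background on any array. On the authors' processed values the change of PDE9A was 1.14 log2 units and was not called, with a limma adjusted p of 0.0882. FURIN, a protease that can cut the B-type precursor, was above background on all 4 arrays and differed by 0.02 ± 0.13 log2 units (SE). CORIN, the atrial peptide convertase, and MME, which encodes neprilysin, a peptidase that degrades these peptides, were not above background on any array. NPR2, the receptor of C-type natriuretic peptide, and PDE5A, another cyclic GMP phosphodiesterase, were above background on 1 shCntrl array only.

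**Figure D1:**
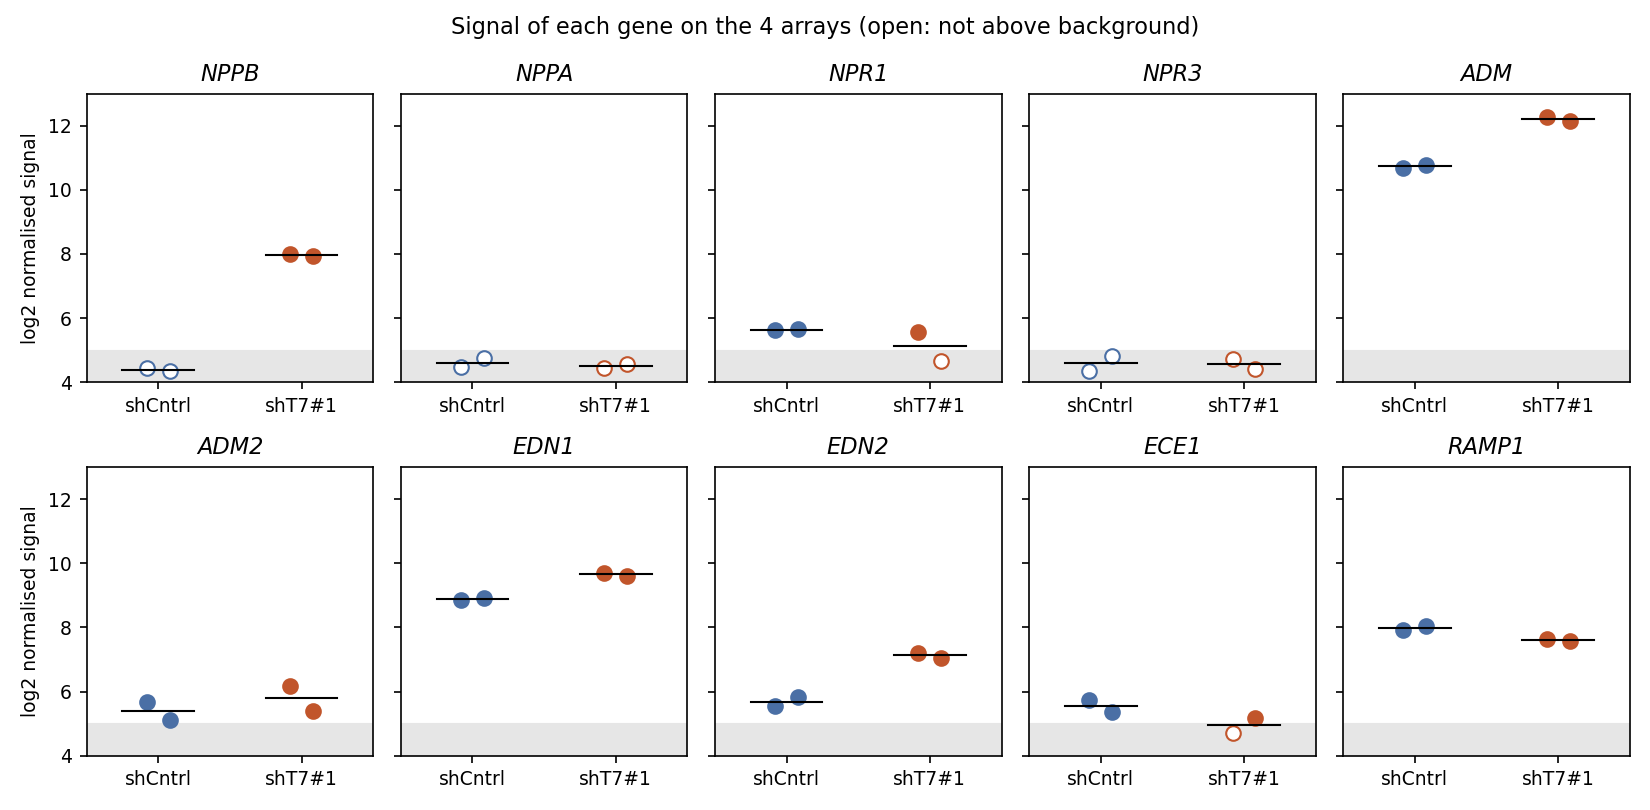
Log2 normalised signal (vertical axis) of the 10 genes on each of the 4 arrays, by group; bars are group means, open points are not above background and the grey band ends at the highest detection floor. NPPB lies in the band in shCntrl and near 7.96 in shT7#1, while NPPA and NPR3 stay in the band on every array.

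ADM, which encodes adrenomedullin, was bright in both groups and higher in shT7#1. Its log2 signals were 10.68 and 10.78 in shCntrl, and 12.27 and 12.15 in shT7#1. Both shT7#1 arrays stood above both shCntrl arrays, with standard deviations of 0.07 and 0.09 (n = 2 each). The increase was 2.79-fold, or 1.48 ± 0.12 log2 units (SE; limma adjusted p = 0.00475). Over 13 alternatives the log2 change of ADM lay between 1.42 and 1.54, and its call was kept, with adjusted p from 5.18e-08 to 0.0489. In the authors' deposited table ADM is listed at 2.81-fold.

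ADM2, which encodes intermedin, a related peptide that acts on the same receptors, was above background on all 4 arrays but dim. Its log2 signals were 5.68 and 5.11 in shCntrl, and 6.18 and 5.38 on the shT7#1 arrays. The groups overlapped. The log2 change was 0.39 ± 0.31 (SE), with a 95% interval from -0.39 to 1.17, and was -0.014 without replicate 1 of shT7#1.

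RAMP1 encodes the receptor activity-modifying protein that, with the calcitonin receptor-like receptor, forms the receptor of calcitonin gene-related peptide. It lay at 7.93 and 8.05 log2 units in shCntrl and at 7.62 and 7.59 in shT7#1. Both shT7#1 arrays stood below both shCntrl arrays. The log2 change was -0.38 ± 0.12 (SE), with a 95% interval from -0.68 to -0.09, and did not pass over all genes, with a limma adjusted p of 0.114. Without background correction it passed narrowly, at -0.27 log2 units and a limma adjusted p of 0.0499.

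Of 12 other genes of adrenomedullin and its relatives, 5 were tested and limma called 0 of them in either direction (0 rose and 0 fell). CALCRL, the receptor through which adrenomedullin acts, and RAMP3, a partner of that receptor, were not above background on any array. RAMP2, the partner that makes CALCRL an adrenomedullin receptor, was dim, at 5.45 and 4.63 log2 units in shCntrl and 5.30 and 5.35 in shT7#1. The value of 4.63 was not above background. Another RAMP2 probe, above background on all 4 arrays, stood at 4.97 and 5.11 in shCntrl and 5.34 and 5.10 in shT7#1. PAM, the enzyme that amidates adrenomedullin into its active form, was bright, at 11.42 and 11.55 log2 units in shCntrl and 11.17 and 11.20 on the shT7#1 arrays. The change of PAM was -0.30 ± 0.12 log2 units (SE), with a limma adjusted p of 0.182. PAM was called lower without background correction and with an intensity trend, with limma adjusted p of 0.0371 and 0.0340.

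EDN1, which encodes endothelin-1, was higher in shT7#1 by less than ADM. Its log2 signals were 8.86 and 8.90 in shCntrl, and 9.70 and 9.60 in shT7#1, with no overlap. The increase was 1.71-fold, or 0.77 ± 0.12 log2 units (SE; limma adjusted p = 0.0243). This call was lost when any 1 of the 4 arrays was left out, with adjusted p between 0.0957 and 0.138, and on the authors' processed values, with adjusted p = 0.0750. The log2 change itself lay between 0.66 and 0.82 over 13 alternatives.

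EDN2, which encodes endothelin-2, was dim in shCntrl and rose in shT7#1. Its raw signals were 141.6 and 156.0 units in shCntrl, and 230.0 and 237.6 units in shT7#1, all above background. The log2 signals were 5.54 and 5.82 in shCntrl, and 7.21 and 7.04 in shT7#1, with no overlap. The increase was 2.73-fold, or 1.45 ± 0.15 log2 units (SE; limma adjusted p = 0.00960). The log2 change was 0.67 without background correction and 1.94 on the authors' processed values, which also differ in normalisation and in how probes were joined. The call was lost without replicate 1 of shCntrl (adjusted p = 0.0563), without replicate 1 of shT7#1 (0.0723) and without replicate 2 of shT7#1 (0.0591).

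ECE1, which encodes the enzyme that cuts big endothelin to its active form, was dim and had lower values in shT7#1 that did not pass. ECE1 stood at 5.73 and 5.37 log2 units in shCntrl, and at 4.72 and 5.17 in shT7#1, where replicate 1 was not above background. The groups did not overlap, and the log2 change was -0.61 ± 0.20 (SE), with a 95% interval from -1.11 to -0.10 (limma adjusted p = 0.136). It lay between -1.24 and -0.19 over 12 alternatives, none of which called it.

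Of 6 other endothelin genes, 2 were tested, 0 rose, 1 fell and 1 was not called. The gene that fell was EDNRB, the endothelin receptor that binds all endothelins alike, at 8.09 and 7.95 log2 units in shCntrl and 6.98 and 7.03 on the shT7#1 arrays. These are values of its brightest probe, and its other probes were not above background on any array. The difference was -1.02 ± 0.12 log2 units (SE; limma adjusted p = 0.0130). The call was lost when any 1 array was left out, with adjusted p between 0.0637 and 0.0883, and on the authors' processed values, where the change was -0.59 with adjusted p = 0.165. EDNRA, the receptor that prefers endothelin-1 and endothelin-2, stayed in the background on all 4 arrays. The brightest probe of ECE2, a second converting enzyme, differed by 0.31 ± 0.16 log2 units (SE), with a limma adjusted p of 0.288, and by 0.12 without replicate 1 and 0.49 without replicate 2 of shCntrl.

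Counted together, 8 of the 10 genes passed the filter on dim probes, which required a probe above background on at least 2 arrays. Of these 8, 4 were called higher (NPPB, ADM, EDN1 and EDN2), 0 were called lower and 4 were not called, while over all 14731 genes tested 6.48% were called, 2.93% higher and 3.55% lower. The groups did not overlap for 7 of the 8, against 55.7% of all genes tested. The median log2 change of the 8 was 0.58, beside -0.00028 over all genes tested. These counts are a description, because the genes were chosen with this comparison known and NPPB entered only through the group in which it was high. The 4 genes called higher all encode peptide precursors. ADM2, also a tested precursor gene, was not called (0.39 log2 units, groups overlapping), and the precursor gene NPPA was not tested. The 3 receptor and enzyme genes that were tested (NPR1, RAMP1 and ECE1) all had fitted changes below 0 that did not pass. That of NPR1 was -0.08 without replicate 2 of shT7#1. Among tested receptor and processing genes named above from outside the 10, RAMP2, FURIN and ECE2 had fitted changes above 0, none called. PAM and EDNRB lay below 0, and EDNRB was called lower. Leaving out 1 array left 2 or 3 of the 10 genes called higher.

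**Figure D2:**
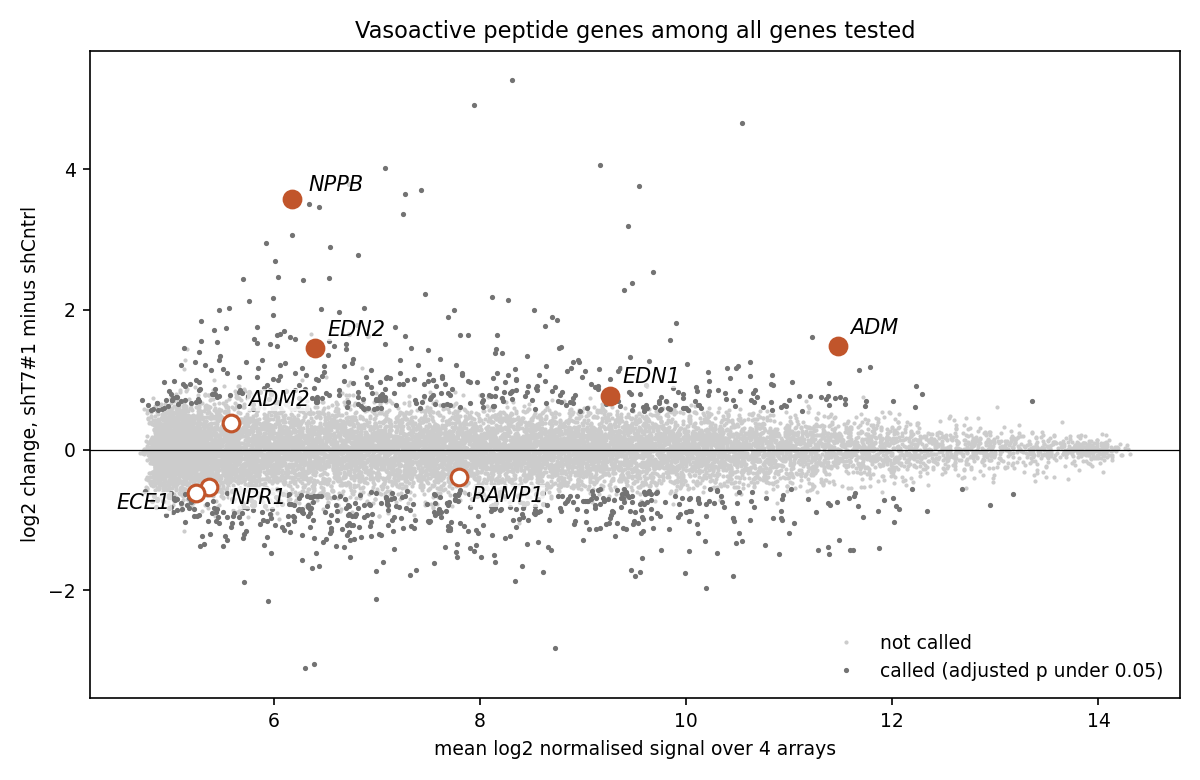
Log2 change, shT7#1 minus shCntrl (vertical axis), against mean log2 normalised signal over the 4 arrays (horizontal axis) for the 14731 tested genes; large circles are the 8 tested vasoactive peptide genes, filled where called. NPPB (3.57) lies among the dim genes, with shCntrl in the background, while ADM (1.48) lies among the bright genes.

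**Figure D3:**
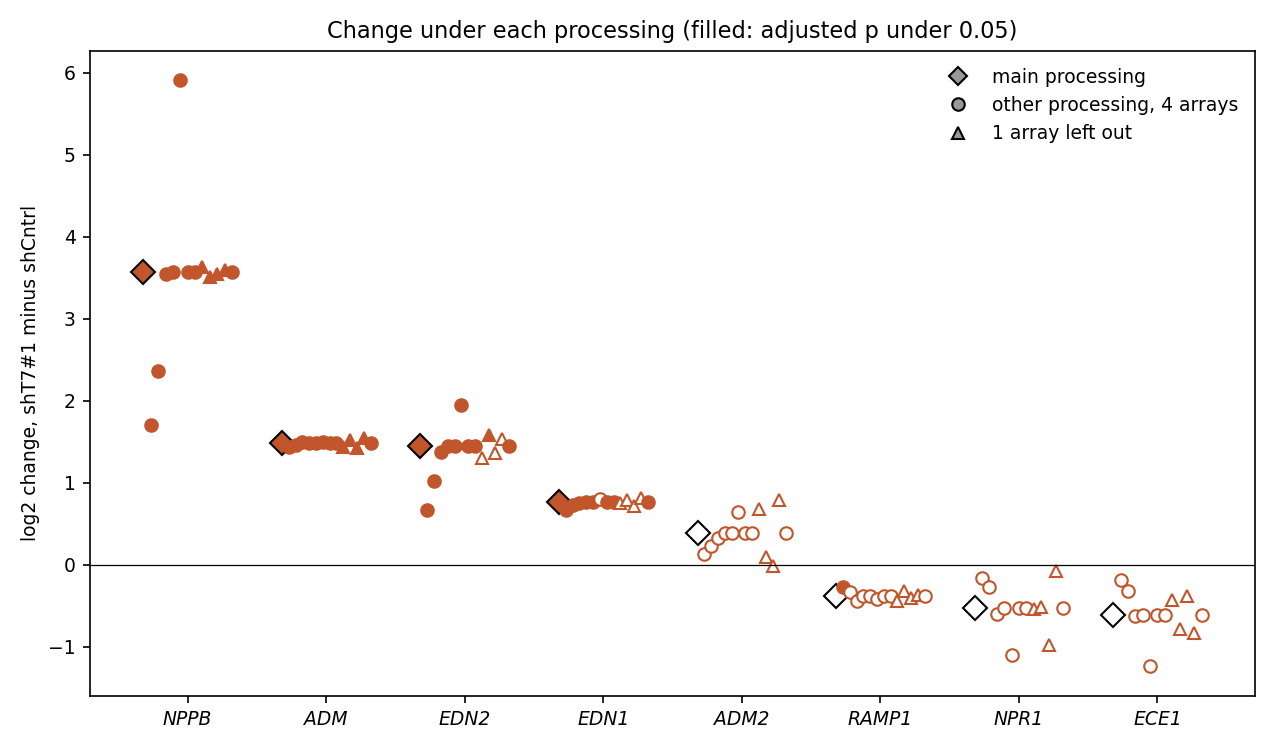
Log2 change, shT7#1 minus shCntrl (vertical axis), of the 8 tested genes under the main processing (diamonds), other processing of all 4 arrays (circles) and with 1 array left out (triangles), filled where the limma adjusted p is under 0.05. NPPB ranges from 1.70 to 5.91 and stays filled, ADM stays between 1.42 and 1.54 and filled, and EDN1 is open whenever 1 array is left out.

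Of 28 genes of other vasoactive systems (angiotensin, bradykinin, nitric oxide, vasoactive intestinal peptide, urotensin, apelin, vasopressin, tachykinin and neuropeptide Y), 7 were tested, 0 rose, 1 fell and 6 were not called. The gene that fell was VIPR1, a receptor of vasoactive intestinal peptide, at 8.48 and 8.45 log2 units in shCntrl and 7.30 and 7.32 in shT7#1. Its difference was -1.16 ± 0.11 log2 units (SE; limma adjusted p = 0.00809). The call was lost when any 1 array was left out, with adjusted p between 0.0564 and 0.0713. NPY, named after its values were seen, was not above background in shCntrl (4.40 and 4.49 log2 units) and stood at 5.32 and 6.44 in shT7#1. The shT7#1 arrays of NPY differed widely, and the limma adjusted p was 0.0740. NPY was called higher under 6 of 12 alternatives, with limma adjusted p between 0.00615 and 0.0464 (without replicate 1 of shT7#1, 0.0336), and its log2 change lay between 0.53 and 3.05.

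Of 18 transcription factors known to act on natriuretic peptide or endothelin promoters, 13 were tested, 2 rose, 1 fell and 10 were not called. EPAS1, the hypoxia-inducible factor also called HIF-2 alpha, rose from 7.90 and 7.73 log2 units in shCntrl to 8.72 and 8.57 in shT7#1. Its difference was 0.83 ± 0.13 log2 units (SE; limma adjusted p = 0.0277). GATA2, a zinc finger factor of endothelial genes, was near the floor, at 4.94 and 5.24 in shCntrl and 5.75 and 5.96 in shT7#1, with a limma adjusted p of 0.0493. FOS, an AP-1 subunit, had no shT7#1 array above background and passed the filter only through shCntrl. With shT7#1 at the detection floor, FOS was at least 1.36-fold lower there under the main processing (limma adjusted p = 0.0215). Without background correction the log2 change of FOS was -0.26 and it was not called, with limma adjusted p = 0.0527. All 3 calls were lost when any 1 array was left out, with adjusted p between 0.0939 and 0.146 for EPAS1, between 0.0936 and 0.176 for GATA2 and between 0.0994 and 0.112 for FOS. On the authors' processed values EPAS1 and GATA2 were not called, with adjusted p = 0.0847 and 0.109, and GATA2 was also lost without background correction, with median scaling and without a detection filter. HIF1A, the other main hypoxia-inducible factor and named after its values were seen, lay at 9.73 and 10.14 in shCntrl and 9.12 and 9.29 on the shT7#1 arrays. The change of HIF1A was -0.73 ± 0.17 log2 units (SE) and did not pass, with a limma adjusted p of 0.0688. HIF1A was called lower under 5 of 13 alternatives (no background correction, an offset of 50, detection on all 4 arrays, an intensity trend and the replicate block), with limma adjusted p between 0.00163 and 0.0369. The cardiac factors GATA4, NKX2-5 and TBX5 were not above background on any array. Over the 5 lists, 79 of 80 genes had a probe and 29 were tested. Of these, 3 rose and 3 fell, with a median log2 change of 0.02. Over all 14731 genes tested, 2.93% were called higher and 3.55% lower.

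**Figure D4:**
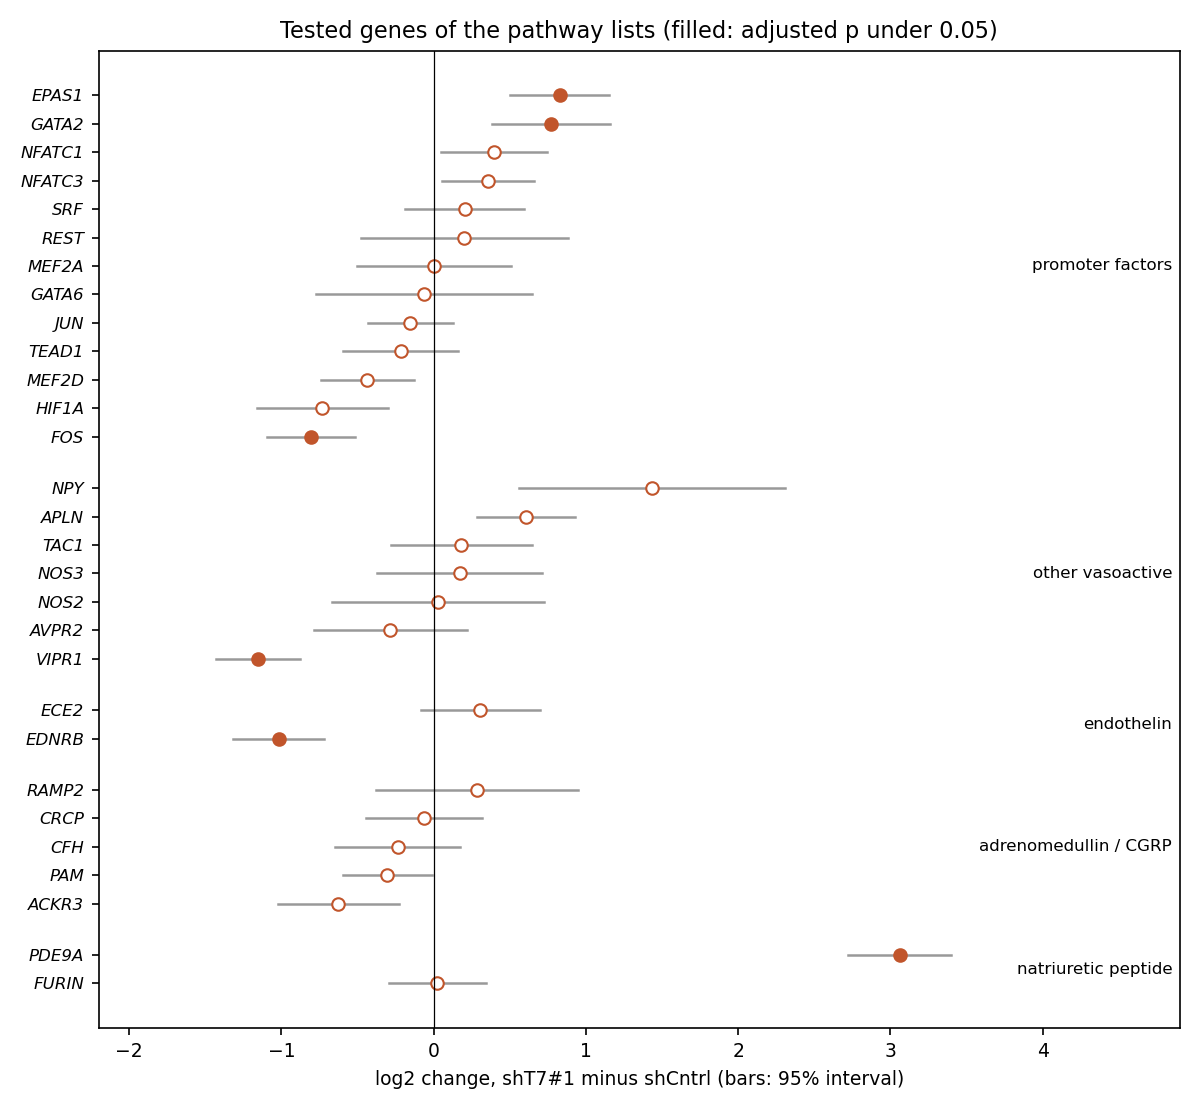
Log2 change, shT7#1 minus shCntrl (horizontal axis), of the 29 tested genes of the 5 pathway lists, with 95% intervals as bars and filled points where the limma adjusted p is under 0.05. PDE9A, GATA2 and EPAS1 are filled above 0, and FOS, EDNRB and VIPR1 are filled below 0.

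The genes whose 4 centred log2 values lay nearest to those of NPPB, by Euclidean distance over the 4 arrays, were IL1A, CSF2 and IL24, at distances of 0.20, 0.202 and 0.231. All 3 encode secreted cytokines. IL1A, like NPPB, lay in the background in shCntrl (4.62 and 4.57 log2 units) and above it on both shT7#1 arrays. CSF2 stood at 7.75 and 7.58 in shCntrl and 11.48 and 11.39 on the shT7#1 arrays. The distances to NPPB hold for the main processing only. Without background correction the log2 changes were 1.70 for NPPB, 1.68 for IL1A, 3.25 for CSF2 and 2.02 for IL24. On the authors' processed values they were 5.91, 5.37, 3.91 and 3.45. The nearest to ADM were the adhesion molecule gene CEACAM1, the NF-kB inhibitor gene NFKBIE and the transcriptional cofactor gene CITED4, at 0.065, 0.099 and 0.107. CEACAM1 lay in the background in shCntrl (4.32 and 4.49 log2 units), and its change of 1.46 log2 units was 0.54 without background correction and 2.06 on the authors' processed values. The nearest to EDN1 were TAP1, a peptide transporter gene of antigen presentation, the interferon-induced gene IFIT1 and EVA1A, at 0.036, 0.041 and 0.041. With 2 arrays a group, this measure mostly orders genes by the size of the group difference.

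Promoter windows are printed for the 3 peptide genes called higher that the RefSeq promoter table holds. Whether these genes share a regulator was not tested. The table (GRCh38.p14) held windows for 8 of the 10 genes, all but NPPB and RAMP1. The 250 bases before the transcript start are printed 5′ to 3′, and capitals mark matches on either strand to the AP-1 motif TGANTCA, the GATA motif GATAA, the hypoxia response cores ACGTG and GCGTG, the TATA motif TATAAA or the kappaB consensus of NF-kB. For EDN1, which has 3 windows, the most downstream is shown.
ADM, chr11:10304823-10305072, plus strand: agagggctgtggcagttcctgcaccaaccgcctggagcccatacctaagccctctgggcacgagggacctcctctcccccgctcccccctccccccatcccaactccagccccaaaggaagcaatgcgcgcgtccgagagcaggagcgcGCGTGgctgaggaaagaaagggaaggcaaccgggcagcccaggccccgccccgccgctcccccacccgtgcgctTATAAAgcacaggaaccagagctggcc
EDN1, chr6:12290111-12290360, plus strand: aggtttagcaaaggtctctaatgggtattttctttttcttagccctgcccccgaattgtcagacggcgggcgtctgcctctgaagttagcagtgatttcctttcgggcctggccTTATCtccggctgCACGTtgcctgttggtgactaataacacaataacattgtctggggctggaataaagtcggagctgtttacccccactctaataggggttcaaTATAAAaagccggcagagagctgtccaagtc
EDN2, chr1:41484684-41484933, minus strand: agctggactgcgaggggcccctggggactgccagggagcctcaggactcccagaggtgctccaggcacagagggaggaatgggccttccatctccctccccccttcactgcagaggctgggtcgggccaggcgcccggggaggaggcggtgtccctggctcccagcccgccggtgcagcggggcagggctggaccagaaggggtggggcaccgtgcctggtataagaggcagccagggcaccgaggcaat

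The ADM window held GCGTG at positions -101 to -97 and TATAAA at -27 to -22, counted back from the transcript start. The EDN1 window held GATAA on the opposite strand at -136 to -132, ACGTG on the opposite strand at -123 to -119 and TATAAA at -31 to -26. The EDN2 window held none of these letters. Among all 35116 windows of this length, TATAAA occurred in 10.7%, GATAA in 20.4%, ACGTG in 18.5%, GCGTG in 32.2%, TGANTCA in 6.57% and the kappaB consensus in 9.96%. The matches are a description of the letters, and no match overlapped another in the printed windows. None of the 3 printed windows held TGANTCA or the kappaB consensus. Sites that differ from the letters searched were not looked for, so these windows may still hold sites of the same factors.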

How the data were processed

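RNA of 4 samples was hybridised to HumanHT-12 v4 bead arrays (Illumina), as the labels state. The deposited table of unnormalised data gave an intensity per probe and array, and a detection p-value against negative control beads. The submitters' processing notes name GenomeStudio 2011.1. The log2 values processed by the authors (1 for each gene symbol) and a table of group means with a linear fold ratio were RMA normalised in ArrayStar, per the file headers. The rule by which the authors joined several probes is not given in the sources used here. Their columns had medians from 3.02 to 3.03.

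Intensities were corrected here with limma 3.58.1 (R 4.3.3) by normexp (offset 16, negative control level taken from the detection p-values), then quantile normalised and log2 transformed. Probes with a detection p below 0.05 on 2 or more arrays were kept, and the brightest of them stood for each of 14731 genes. Symbols were updated through RefSeq names (GRCh38.p14), 3297 of 31426, and the probes of 11 symbols that a spreadsheet had turned into dates were left out. The groups were compared with limma (lmFit, eBayes, group as the only term, 2 residual and 3.65 prior degrees of freedom), two-sided, with Benjamini-Hochberg adjustment over all genes at 0.05. The fit was tested on simulated data. These were drawn on the log2 scale after normalisation and filtering, so they do not test those steps. Errors are SE of the fit or SD over 2 arrays, and 4 arrays limit the precision. No slide or scan batch is known from the sources used here. Marker sums add the normalised linear signal of each gene's brightest probe.

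The members, the 5 pathway lists, the markers and the alternatives were chosen with earlier results of these data known, so adjusted p-values of the members place them in the fit of all genes and are no independent support. The genes named are the 10 members, every pathway list gene called, 12 set receptors and enzymes of these peptides, the 3 genes nearest to NPPB, ADM and EDN1, and 3 genes on either side of NPPB. Outside this rule, HIF1A, NPY, GATA4, NKX2-5, TBX5 and some markers of other cell types were named after their values were seen.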

Additional observations from a re-analysis of the deposited data

How the results depend on the processing

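NPPB and ADM kept their direction and their call under every alternative that could be computed, while EDN1 lost its call under 5 of 13 alternatives and EDN2 under 3. Over the 8 tested members, 91 of 101 comparisons with an alternative kept direction and side of the threshold. NPPB, NPR1 and ECE1 gave no value where detection on all 4 arrays was required. With 1 array left out, ADM2 lay between -0.014 (without replicate 1 of shT7#1) and 0.79 log2 units, RAMP2 between -0.12 (without replicate 2 of shCntrl) and 0.69, and FURIN between -0.075 (without replicate 2 of shCntrl) and 0.12. FURIN also turned to -0.016 without replicate 1 of shT7#1 and to -0.049 with median scaling. The cause of these turns was not tested. Without background correction 1161 genes were called higher and 1262 lower, against 432 and 523 with the main processing, and 1 member (RAMP1) and 6 pathway list genes were lower. With an offset of 50 the counts were 965 and 1086, with 6 pathway list genes lower. With an intensity trend in eBayes they were 1135 and 1254, with 7 pathway list genes lower. Detection on all 4 arrays gave 694 and 817. The authors' processed values gave 111 and 97, with 0 pathway list genes called higher. Leaving out 1 array gave between 69 and 86 genes higher and between 38 and 53 lower, between 2 and 3 members higher, between 1 and 2 pathway list genes higher and 0 lower. The labels number the arrays 1 and 2 in both groups. With the replicate block 553 genes were higher and 667 lower, and the same 4 members were called. The deviations of same-numbered arrays from their group means correlated at 0.12 over genes, and with 1 such pair of deviations this does not show that the numbers pair the samples. Signals near the detection floor limit what can be said of NPPA, NPR1, NPR3, ADM2 and ECE1, and of the size of the NPPB and EDN2 changes.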
